A study of Mus musculus with 8 samples.

Results

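The genes described here are 10 inflammatory genes: the cytokines Il6, Tnf and Il1b, the chemokines Ccl2, Cxcl1 and Cxcl10, and 4 genes that NF-kB or cytokine signals induce, Nfkbia, Tnfaip3, Socs3 and Icam1. They were chosen by gene symbol, and each symbol matched 1 of the 19417 entries of the expression table. RNA was sequenced from primary cortical neurons of C57BL/6 mice that had been kept for 24 h in DMSO, the vehicle, in 10 µM 4-OI, in 50 µM hemin, or in 50 µM hemin with 10 µM 4-OI. Each group had 2 libraries, 8 in all. The labels name no mutation and no sex, and their age entry holds the 24 h of treatment. Hemin is the oxidised, iron-containing form of heme that is released when hemoglobin breaks down. 4-OI is 4-octyl itaconate, a cell-permeable itaconate derivative that activates the antioxidant factor NRF2 and has been used to dampen inflammatory gene expression in macrophages. The design asks how these genes respond to hemin and whether 4-OI alters that response.

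NF-kB is a dimeric transcription factor that IkB proteins hold in the cytoplasm. Signals from TNF, interleukin-1 or Toll-like receptors lead to phosphorylation and breakdown of IkB, and the freed dimer enters the nucleus and induces cytokines, chemokines and adhesion molecules. It also induces its own brakes, among them IkB-alpha (Nfkbia) and the ubiquitin-editing enzyme A20 (Tnfaip3), while Socs3 is induced by STAT3 and blocks receptors of the interleukin-6 family. In brain tissue microglia and astrocytes are the best known sources of these cytokines and chemokines.

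The promoters below are shown for their matches to the NF-kB consensus motif. Whether the motif has a part in the changes of these genes was not tested. RefSeq promoter sequences, of build GRCm38.p6, were found for 9 of the 10 genes, and Ccl2 was not matched. They run from 250 bases before to 50 bases after the transcription start. The consensus, searched on both strands, was present in 5 of these 9 genes, against 8.46% of all 32851 promoter windows of that length. The 5 were Il6, Cxcl1, Cxcl10, Nfkbia and Tnfaip3. The 9 genes had 10 windows, since Tnfaip3 has 2 starts, and its window at start 2 held no match. A motif of the interferon response, GAAA followed after 2 bases of any kind by another GAAA, was searched on both strands and was present in 1 of the 9 genes, Cxcl10, against 3.44% of all windows. The stretches before the start are given on the strand of the gene, with matches in capitals. A match describes these letters only and does not show that a factor binds there.
Il6, chr5:30012984-30013113, plus strand: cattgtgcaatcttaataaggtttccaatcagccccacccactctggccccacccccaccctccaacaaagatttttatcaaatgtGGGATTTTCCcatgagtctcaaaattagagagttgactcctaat
Cxcl1, chr5:90891115-90891244, plus strand: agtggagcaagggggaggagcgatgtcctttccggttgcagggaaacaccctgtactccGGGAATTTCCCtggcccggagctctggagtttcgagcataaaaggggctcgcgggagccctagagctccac
Cxcl10, chr5:92348890-92349139, minus strand: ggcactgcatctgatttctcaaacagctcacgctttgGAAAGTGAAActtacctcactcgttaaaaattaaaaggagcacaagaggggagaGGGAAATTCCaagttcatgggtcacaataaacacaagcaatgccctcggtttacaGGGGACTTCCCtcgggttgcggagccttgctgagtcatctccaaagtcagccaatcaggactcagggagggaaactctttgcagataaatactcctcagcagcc
Nfkbia, chr12:55492648-55492777, minus strand: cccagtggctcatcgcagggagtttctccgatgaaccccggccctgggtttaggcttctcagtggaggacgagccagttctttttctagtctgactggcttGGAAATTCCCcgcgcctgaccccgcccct
Tnfaip3, chr10:19015411-19015540, minus strand: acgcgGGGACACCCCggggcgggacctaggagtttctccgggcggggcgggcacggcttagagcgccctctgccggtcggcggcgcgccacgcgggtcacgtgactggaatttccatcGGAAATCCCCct
In the Cxcl10 stretch the leading capital block is the interferon motif and the other blocks are NF-kB matches. The block of Cxcl1 and the last block of Cxcl10 each hold 2 overlapping NF-kB matches.

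Values are FPKM as the authors deposited them, that is, fragments scaled by transcript length and library size. Changes were tested with limma on log2(FPKM + 1) over all 8 libraries, and log2 fold changes refer to FPKM + 1, so that those of low genes come out too small. The 13746 genes that reached an FPKM of 1 in 2 or more libraries were tested, and a gene is said to have risen or fallen where its adjusted p was below 0.05. Of the 10 genes 9 were tested. Il1b was not, and Il6, Tnf and Tnfaip3 reached the filter only with the help of libraries with hemin, so they had to differ there. The remaining 6, Ccl2, Cxcl1, Cxcl10, Nfkbia, Socs3 and Icam1, met it on the libraries without hemin alone. Whether the 2 libraries of a group are separate cultures is not stated, and p-values then cover just the variation among these samples, possibly technical. In RNA from whole cultures, fewer cells of a type and less RNA per cell cannot be told apart.

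The steps between low FPKM values gave an estimated depth of 9.0 to 10.5 M fragments per library. Hemin replicate 1 stood apart from the other libraries with hemin. Its summed markers of microglia and macrophages (17 genes, none at 0 in any library) were at 866.3 FPKM, against 274.8 in Hemin replicate 2 and 295.3 and 302.8 with hemin plus 4-OI. They were at 153.1 to 167.7 with DMSO and 132.2 to 208.8 with 4-OI. Summed astrocyte markers (12 genes, none at 0) were at 3843 FPKM in Hemin replicate 1, 1497 in Hemin replicate 2, 1538 and 1588 with both compounds, and 638.6 to 768.6 without hemin. The labelled neurons were present by their markers. The summed neuron markers (12 genes, none at 0) were at 2597 to 2788 FPKM without hemin and 690.6 to 956.9 with it. Tubb3 was the most abundant of them in DMSO, at 1178.74 and 1178.5 FPKM. It was at 66.89 and 63.6 FPKM with hemin and 77.24 and 80.3 with both compounds. The fall of the neuron sum thus rests in large part on Tubb3, and its size does not describe the other neuron markers. The fitted changes of the 9 tested genes with hemin, and the list counts, are therefore also given without Hemin replicate 1.

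Hemin against DMSO asked whether these inflammatory genes respond to hemin. All 6 genes that could be tested free of the filter rose, with log2 fold changes above 2 for the chemokines Cxcl10, Cxcl1 and Ccl2 and the feedback gene Socs3. Il6, Tnf and Tnfaip3 rose as well, and Il1b was at 0 or about 1 fragment in each library. Among the 12387 genes that passed the filter without hemin 34.1% rose, and 38.7% of all genes tested did. All 6 rose without Hemin replicate 1 too.

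**Figure D1:**
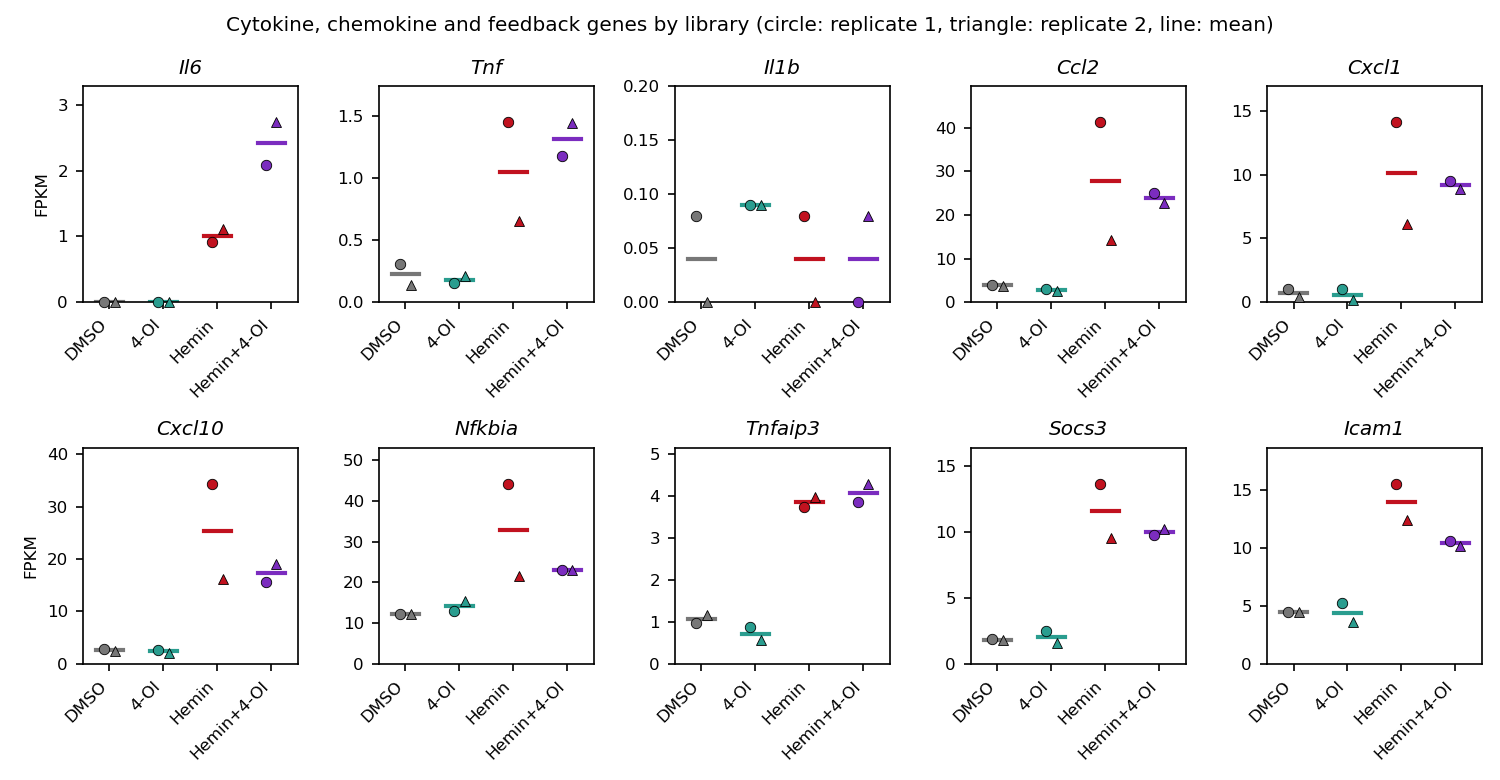
FPKM (y axes, linear from 0, scaled per gene) of each of the 10 genes in the 4 groups, with circles for replicate 1, triangles for replicate 2 and a line for the mean of 2 libraries. In the 9 genes other than Il1b each library with hemin lies above each library without it, as in 40.8% of all genes tested. Of these 9, Il6, Tnf and Tnfaip3 reached the filter only with the help of libraries with hemin. Hemin replicate 1 is the highest library for Ccl2, Cxcl1, Cxcl10, Nfkbia, Socs3, Icam1 and, narrowly, Tnf.

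Interleukin-6, the ligand of the receptor formed with gp130, was listed at 0 in all 4 libraries without hemin. It was at 0.91 and 1.11 FPKM in the hemin libraries and at 2.09 and 2.74 FPKM with hemin plus 4-OI. At the estimated depth these values stand for about 9.5 and 11.2 fragments with hemin and 19.9 and 27.7 with both, while 1 fragment is worth 0.094 to 0.109 FPKM. The gene was therefore detected only at low level, and no fold change can be given against a group listed at 0. Its log2 fold change on FPKM + 1 was 1.01 ± 0.17 (SE; limma adjusted p = 0.00142), 1.08 without Hemin replicate 1, and 3.47 with a pseudocount of 0.1. The Il6 entry also includes 1 transcript that the authors' table marks as additional to RefSeq.

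Tumour necrosis factor, an early NF-kB-inducing cytokine, had 0.31 and 0.14 FPKM in the DMSO libraries, 0.15 and 0.21 in those given 4-OI, 1.45 and 0.65 in those given hemin, and 1.18 and 1.44 in those given both. Its hemin values correspond to about 22.5 and 9.7 fragments, against 2.0 to 4.9 without hemin. All 4 libraries with hemin were above all 4 without it, as in 40.8% of all genes tested, but the gene reached the filter only through libraries with hemin. Tnf rose by a log2 fold change of 0.72 ± 0.22 (limma adjusted p = 0.0207). The call was not kept without Hemin replicate 1 (0.43, limma adjusted p = 0.0767), without DMSO replicate 1 (0.82, 0.0533) or replicate 2 (0.62, 0.12), in the fit of the DMSO and hemin libraries alone (0.72, 0.0637), or with quantile normalization (0.07, 0.818).

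Interleukin-1 beta, the inflammasome-processed cytokine typical of activated macrophages, was near the limit of detection in all groups. It was at 0.08 FPKM in DMSO replicate 1, 0.09 in both 4-OI libraries, 0.08 in Hemin replicate 1 and Hemin+4-OI replicate 2, and listed at 0 in the other 3 libraries. Each of the values above 0 stands for about 1.0 fragment, so no group stood out, and a small difference could not have been seen at this depth. In Hemin replicate 1, where the microglia and macrophage markers summed to 866.3 FPKM, Il1b was at 0.08, or about 1.0 fragment. Any link between these values was not tested.

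Over both hemin libraries the 3 chemokines had the largest ratios to DMSO among members with a DMSO value above 0. That order rested on Hemin replicate 1, since in Hemin replicate 2 Ccl2 was at 3.71 times the DMSO mean, below Socs3 (5.22) and Tnfaip3 (3.76). Cxcl10, which draws T cells through CXCR3 and is a classic interferon and NF-kB target, had 2.78 and 2.37 FPKM in the DMSO libraries and 34.4 and 16.22 in the hemin libraries. The 4-OI libraries were at 2.56 and 2.12, and those with both compounds at 15.68 and 19.04. The means with DMSO and hemin were 2.58 ± 0.290 and 25.3 ± 12.9 FPKM (SD, n = 2), a ratio of 9.83. The log2 fold change was 2.79 ± 0.30 (limma adjusted p = 0.000142), rank 43 of 13746 genes by size of rise, and 2.27 without Hemin replicate 1.

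Cxcl1, the neutrophil attractant that binds CXCR2, had 1.02 and 0.37 FPKM under DMSO, 1.06 and 0.13 under 4-OI, 14.13 and 6.11 under hemin, and 9.49 and 8.86 under the combination. The lowest library with hemin was thus far above the highest without it, although the libraries without hemin differed widely among themselves. Its ratio of means was 14.6, on a DMSO mean of only 0.695 ± 0.460 FPKM (SD, n = 2), from about 8.9 and 3.0 fragments. The log2 fold change was 2.64 ± 0.39 (limma adjusted p = 0.000712) and 2.10 without Hemin replicate 1.

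Ccl2, the monocyte attractant that binds CCR2, measured 3.91 and 3.77 FPKM under DMSO, 3.10 and 2.49 under 4-OI, 41.34 and 14.23 under hemin, and 25.12 and 22.77 under the combination. Of all members it differed most between the hemin libraries, with replicate 1 at 2.91 times replicate 2. Over 13717 genes that ratio had a median of 1.02, and 5% of genes were above 2.09. The log2 fold change was 2.39 ± 0.38 (limma adjusted p = 0.00102) and 1.65 without Hemin replicate 1, a fold on FPKM + 1 that moved by more than 1.5 times.

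The feedback genes started from different levels. Nfkbia, which encodes IkB-alpha, was the most abundant member in DMSO, at 12.32 and 12.21 FPKM. The 4-OI libraries had 12.85 and 15.44 FPKM, the hemin libraries 44.27 and 21.63, and those given both 22.91 and 23.03. Leaving aside Hemin replicate 1, the libraries with hemin lay close together, at 1.76 to 1.88 times the DMSO mean. The log2 fold change was 1.27 ± 0.27 (limma adjusted p = 0.00389) and 0.77 without Hemin replicate 1 (limma adjusted p = 0.000401).

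Tnfaip3, which encodes A20, behaved differently in the hemin pair. The DMSO libraries had 0.96 and 1.16 FPKM, the 4-OI libraries 0.87 and 0.56, the hemin libraries 3.73 and 3.98, and those given both 3.85 and 4.29. All libraries with hemin fell between 3.52 and 4.05 times the DMSO mean, and Hemin replicate 1 was the lowest of them. The log2 fold change was 1.24 ± 0.17 (limma adjusted p = 0.000425) and 1.28 without Hemin replicate 1.

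Socs3, the inhibitor of interleukin-6 family receptors, measured 1.90 and 1.76 FPKM under DMSO, 2.45 and 1.57 under 4-OI, 13.70 and 9.56 under hemin, and 9.79 and 10.21 under the combination. It had the lowest p of the members, with a log2 fold change of 2.14 ± 0.20 (limma adjusted p = 9.2e-05), 1.90 without Hemin replicate 1. Icam1, the adhesion molecule that leukocyte integrins bind, had 4.48 and 4.49 FPKM under DMSO, 5.23 and 3.57 under 4-OI, 15.60 and 12.47 under hemin, and 10.66 and 10.15 under the combination. Its log2 fold change was 1.45 ± 0.18 (limma adjusted p = 0.000277) and 1.30 without Hemin replicate 1. For both genes the lowest library with hemin was above the highest without it. Such a separation was found in 6 of the 6 members that passed the filter without hemin and in 36.4% of such genes. Over all genes tested, where the filter itself favours it, the share was 40.8%.

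The order of the levels changed with hemin. In DMSO, FPKM fell from Nfkbia through Icam1, Ccl2, Cxcl10, Socs3, Tnfaip3, Cxcl1 and Tnf to Il1b and Il6, and only Tnfaip3 and Cxcl1 among neighbours above Il1b overlapped. With hemin the means ran from Nfkbia (33.0 ± 16.0 FPKM) through Ccl2 (27.8 ± 19.2), Cxcl10 (25.3 ± 12.9), Icam1 (14.0 ± 2.21), Socs3 (11.6 ± 2.93) and Cxcl1 (10.1 ± 5.67) to Tnfaip3 (3.86 ± 0.177), Tnf (1.05 ± 0.566) and Il6 (SD, n = 2). In that group the upper 3 overlapped one another, Ccl2 also overlapped Icam1, Icam1, Socs3 and Cxcl1 overlapped one another, and Tnf overlapped Il6. With both compounds Ccl2 (23.9 ± 1.66) and Nfkbia (23.0 ± 0.0849) overlapped at the top, and Il6 lay above Tnf without overlap (SD, n = 2).

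The markers of other cells moved with these genes, and their part in the result was not tested. Relative to the DMSO mean, the microglia and macrophage sum was 5.40 times in Hemin replicate 1 and 1.71 times in Hemin replicate 2, and the astrocyte sum 5.47 and 2.13 times. In the same libraries Cxcl10 was at 13.4 and 6.30 times, Ccl2 at 10.8 and 3.71 times, and Socs3 at 7.49 and 5.22 times. Nfkbia, at 3.61 and 1.76 times, and Icam1, at 3.48 and 2.78 times, were nearer to the marker sums. With both compounds the microglia sum was at 1.84 and 1.89 times, with 3 of 16 tested markers higher than DMSO, while Ccl2 was at 6.54 and 5.93 times and Cxcl1 at 13.7 and 12.7 times. Without 4-OI 15 of these 16 markers rose with hemin. Their median log2 fold change against DMSO was 1.49 with hemin, 0.74 with hemin without Hemin replicate 1, and 0.78 with both compounds. The spread behind the calls included the gap between the hemin libraries, so these counts do not compare the sizes of the rises. Astrocyte markers stayed higher with both compounds, with sums at 2.19 and 2.26 times DMSO and 9 of 12 markers called, against 11 of 12 with hemin alone. Neuron markers were lower in 8 of 12 cases with both and in 9 of 12 with hemin alone. The median log2 fold change of the 12 neuron markers against DMSO was −0.90 with both compounds and −1.10 with hemin. It was −1.03 with hemin without Hemin replicate 1. Over all genes tested, 38.7% rose and 22.6% fell with hemin alone, and 34.6% rose and 24.0% fell with both. Of the 14 microglia and macrophage markers that passed the filter without hemin, 13 rose with hemin and 2 with both compounds, counts with the same limit. The shares of all such genes were 34.1% and 31.1%. Fibroblast and meningeal markers summed to 60.2 to 66.5 FPKM without hemin and 97.1 to 138.1 with it, with Thy1, which neurons also express, as their most abundant gene in DMSO. Endothelial markers summed to 1.42 to 1.98 FPKM without hemin and 4.72 to 7.56 with it, with 1 to 5 of 9 at 0 in each library.

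**Figure D2:**
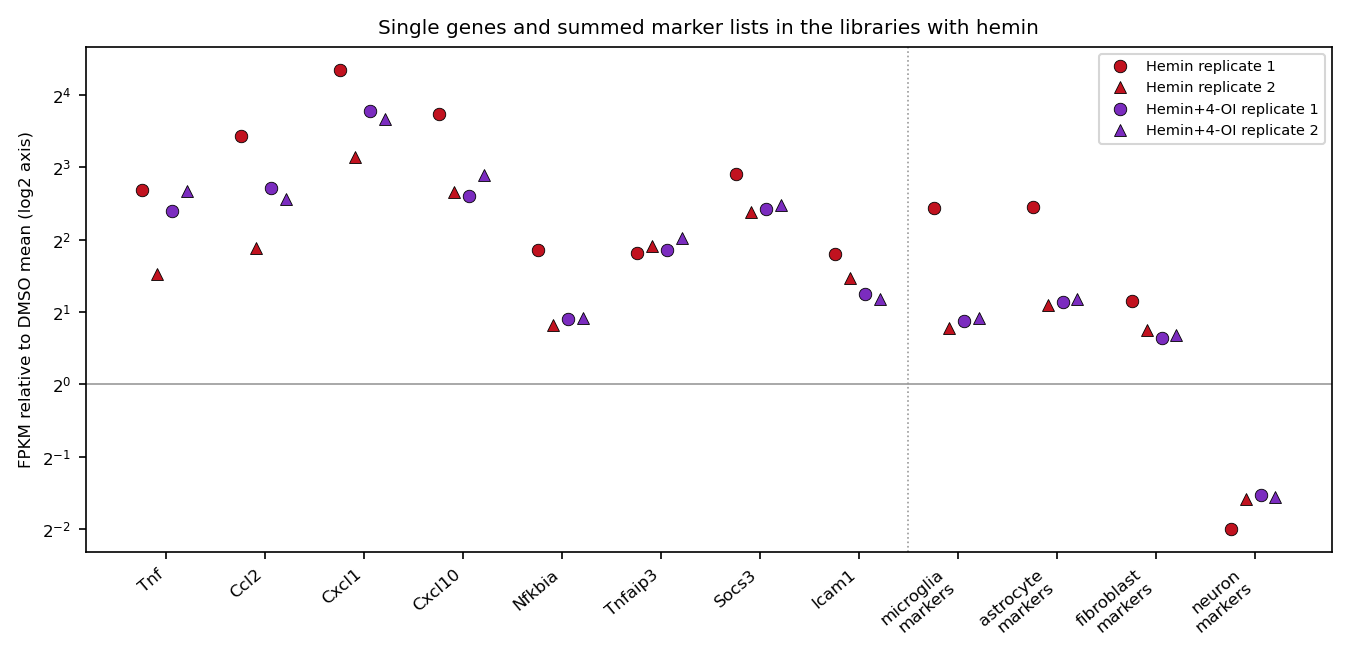
FPKM in the 4 libraries with hemin relative to the DMSO mean (log2 axis) for 8 of the genes and for 4 summed marker lists, with red for hemin, purple for hemin plus 4-OI, circles for replicate 1 and triangles for replicate 2. Hemin replicate 1 is the highest library for the microglia (5.40 times) and astrocyte (5.47 times) sums and for 7 of the 8 genes, while Tnfaip3 is at 3.52 to 4.05 times in all 4; Il6 and Il1b are not drawn.

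The other genes of the pathway were counted by lists, against 38.7% of all genes tested that rose and 22.6% that fell, and 34.1% that rose among genes passing the filter without hemin. Without Hemin replicate 1, 40.8% of all genes tested rose. Of 14 genes for NF-kB subunits and their kinases, all tested, 10 rose with hemin and 1 fell (median log2 fold change 1.15, against 0.19 over all genes tested). Of the 12 that passed without hemin 8 rose, and the count of 10 was the same without Hemin replicate 1. Nfkb1, the p105 and p50 precursor, went from 3.67 and 3.68 FPKM to 12.3 and 11.1 (log2 fold change 1.44), and Relb from 1.42 and 1.07 to 7.25 and 5.67 (1.73). The kinases Map3k14, also called NIK, and Chuk, also called IKK-alpha, rose by 1.64 and 1.09. The member that fell was Tab1, an adapter of the kinase TAK1 (−0.53, limma adjusted p = 0.00927), and Rela, the p65 subunit, rose by 0.37; both were named after their values were seen.

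Further feedback genes rose in 10 of 15 tested cases of 18, and none fell (median 0.68). Nfkbiz, a nuclear IkB protein, went from 1.75 and 1.93 FPKM to 16.97 and 13.49 (log2 fold change 2.51 ± 0.15, limma adjusted p = 2.1e-05). Zfp36, which encodes tristetraprolin, a protein that destabilises cytokine mRNAs, went from 1.80 and 1.32 to 39.52 and 12.26 FPKM (3.19 ± 0.43), and the value was 2.38 without Hemin replicate 1. Itch, a ubiquitin ligase that works with A20, rose by 1.19, and Tax1bp1, an A20 adapter, by 0.63. Of the 11 genes of this list that passed the filter without hemin, 6 rose. The count over the list was again 10 of 15 without Hemin replicate 1.

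Receptors and adapters upstream of NF-kB rose in 13 of 16 tested cases of 20, and none fell (median 0.99). The TNF receptor gene Tnfrsf1a went from 10.03 and 8.38 FPKM to 47.64 and 23.22 (log2 fold change 1.75). Il1r1, the interleukin-1 receptor, rose from 0.35 and 0.46 to 2.25 and 1.63 (1.06). Traf6, a signalling adapter, rose by 1.12 and Ly96, the co-receptor of TLR4, by 1.73. Il1r1 and Ly96 passed the filter only through libraries with hemin. Of the 11 that passed without hemin 9 rose. Without Hemin replicate 1, 9 of the 16 rose and 1 fell (median 0.62), and 5 of the 11 rose.

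In the interleukin-6 receptor, JAK, STAT and SOCS list 11 of 20 tested genes, or 55.0%, rose and 2 fell (median 0.55). All 20 passed the filter without hemin, and without Hemin replicate 1 12 rose and 3 fell. Both parts of the interleukin-6 receptor rose, Il6ra from 1.18 and 0.75 to 4.00 and 3.91 FPKM (1.34) and Il6st, which encodes gp130, from 9.68 and 9.85 to 18.67 and 17.66 (0.83). Among the SOCS genes Socs6 rose by 1.11, while Socs2 went from 20.37 and 22.85 to 9.06 and 8.94 FPKM (log2 fold change −1.17, limma adjusted p = 0.000125). The other gene that fell was Jak1 (−0.26, limma adjusted p = 0.025), named after its value was seen.

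Other cytokine genes rose in 13 of 15 tested cases of 23, and none fell (median 0.91), but 8 of the 15 passed the filter without hemin, of which 7 rose. Without Hemin replicate 1 the counts were 10 of 15 and 5 of 8. Clcf1 and Lif passed only through libraries with hemin. Clcf1, a ligand of gp130 receptors, went from 0.28 and 0.32 to 4.79 and 4.44 FPKM (log2 fold change 2.11). Lif, another such ligand, went from 0.58 and 0.42 to 3.17 and 2.28 FPKM (1.30). Csf1, the growth factor of microglia, rose by 1.92 and Tgfb2 by 1.21. Other chemokines rose in 7 of 12 tested cases of 21 (median 0.99), but of the 7 that passed without hemin 2 rose, and 28.6% is near the 34.1% of all such genes. Of the 12, 6 rose and 2 fell without Hemin replicate 1 (median 0.55). Cxcl5, another CXCR2 ligand, went from 0 and 0.33 to 9.02 and 3.06 FPKM (log2 fold change 2.47, and 1.82 without Hemin replicate 1), and passed the filter only through libraries with hemin. Cxcl2 rose by 0.99, Cxcl16 by 1.11 and Ccl25 by 0.99, and of these Cxcl2 and Cxcl16 passed only through libraries with hemin.

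Chemokine receptors had 4 of 9 members tested, of which 2 rose and 1 fell (median 0.57), with the same counts without Hemin replicate 1. Cxcr4, the receptor of Cxcl12, rose by 1.45 and the microglial receptor Cx3cr1 by 0.88. Ackr1, a decoy receptor for chemokines, fell by 0.99, and Ackr3 had a log2 fold change of 0.25 (limma adjusted p = 0.188). Among adhesion genes 4 of 5 tested rose and 1 fell, with 11 in the list (median 1.46). The counts were the same without Hemin replicate 1 (median 0.90), and 3 of the 4 that passed without hemin rose. Vcam1, an endothelial and astrocytic adhesion molecule, went from 8.34 and 9.89 FPKM to 39.65 and 17.85 (1.46), and was at 0.90 without Hemin replicate 1. Icam5, the neuronal relative of Icam1 also called telencephalin, went the other way, from 11.87 and 12.05 to 5.27 and 6.20 FPKM (log2 fold change −0.95, limma adjusted p = 0.00042). Pecam1 and Itgb2, adhesion genes of endothelium and leukocytes, rose by 2.90 and 1.67, and Itgb2 by 0.95 without Hemin replicate 1. Pecam1 passed the filter only through libraries with hemin.

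**Figure D3:**
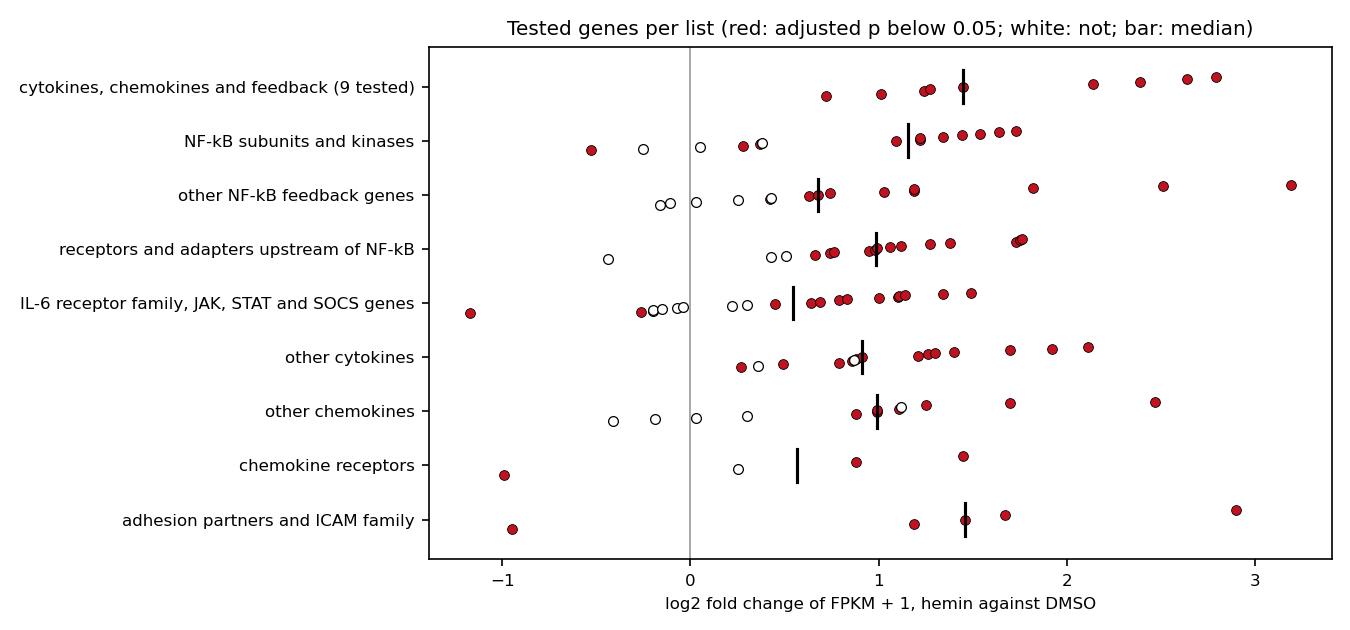
Log2 fold change of FPKM + 1 with hemin against DMSO (x axis) of each tested gene, 1 row per list, red where the limma adjusted p is below 0.05 and white where it is not, with a bar at the median. The 9 tested members lie between 0.72 and 2.79, and the lowest points are Socs2 (−1.17), Ackr1 (−0.99) and Icam5 (−0.95).

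Hemin plus 4-OI against 4-OI, the hemin response in the presence of 4-OI, compared the means of other libraries than the comparison above. The spread behind its tests was pooled over all 8 libraries, so it is not independent of that comparison. Of the 6 genes that passed the filter without hemin 5 rose, against 30.0% of such genes and 33.3% of all genes tested. Ccl2 and Cxcl1 had log2 fold changes of 2.72 ± 0.38 and 2.74 ± 0.39, Cxcl10 2.46 ± 0.30, Socs3 1.88 ± 0.20 and Icam1 1.10 ± 0.18. Il6 (1.77 ± 0.17), Tnfaip3 (1.57 ± 0.17) and Tnf (0.97 ± 0.22) rose as well. Nfkbia, at 12.85 and 15.44 FPKM with 4-OI and 22.91 and 23.03 with both, did not pass (0.67 ± 0.27, limma adjusted p = 0.0625). It passed with the same log2 fold change without Hemin replicate 1 (limma adjusted p = 0.00023), without Hemin replicate 2 (0.000224) and with only these 2 groups in the fit (0.000544), which leave out all or part of the spread between the hemin libraries. Against DMSO, whose libraries it shares with the comparisons above, hemin plus 4-OI gave rises in all 9 tested members, where 34.6% of all genes rose. Among them were the 6 that passed the filter without hemin, against 31.1% of such genes. The call of Nfkbia was lost with no filter (limma adjusted p = 0.0758) and on leaving out any 1 of the DMSO or Hemin+4-OI libraries (0.0887 to 0.0972). That of Tnf was lost with quantile normalization (0.163) and without DMSO replicate 2 (0.0586) or Hemin+4-OI replicate 2 (0.0503), and 7 to 9 members rose on leaving out single libraries. They ranged from 0.85 ± 0.27 for Nfkbia to 2.61 ± 0.39 for Cxcl1.

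4-OI against DMSO asked whether 4-OI moves these genes without hemin. No member passed, and neither did any of the 13746 genes (0%, with 1.30% at an unadjusted limma p below 0.05 and no member among them). The log2 fold changes ran from −0.36 ± 0.38 for Ccl2 to 0.19 ± 0.27 for Nfkbia. Intervals of 95% were −1.24 to 0.53 for Ccl2, −1.03 to 0.78 for Cxcl1, −0.78 to 0.58 for Cxcl10 and −0.65 to 0.11 for Tnfaip3. They are not adjusted for the number of genes tested, and changes within them are not excluded. Ccl2 and Tnfaip3 were lower in both 4-OI libraries than in both DMSO libraries, as were 14.9% of all genes tested. Nfkbia was higher in both, as were 20.2%. Il1b was not tested, and Il6 was listed at 0 in both groups.

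Hemin plus 4-OI against hemin asked whether 4-OI changes these genes under hemin. No member passed, nor did any of the 13746 genes (0%, with 8.80% at an unadjusted p below 0.05, among them Il6). Il6 was the only tested member above its hemin level in both libraries with 4-OI, with 2.09 and 2.74 against 0.91 and 1.11 FPKM, a ratio of means of 2.39. Its log2 fold change was 0.76 ± 0.17, with an interval of 0.36 to 1.16 and a limma adjusted p = 0.556, rank 25 of 13746 by size of rise. Both libraries with 4-OI were above both without it in 14.4% of all genes tested.

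Icam1 was the only tested member that was lower in both libraries with 4-OI, at 10.66 and 10.15 against 15.60 and 12.47 FPKM, as were 20.2% of all genes. Its log2 fold change was −0.39 ± 0.18 (interval −0.80 to 0.02, limma adjusted p = 0.556). For Cxcl10 (−0.43 ± 0.30) and Nfkbia (−0.42 ± 0.27) the libraries with 4-OI lay near Hemin replicate 2 and well below Hemin replicate 1. Ccl2 and Cxcl1, both at −0.03, had intervals of −0.91 to 0.85 and −0.93 to 0.88, and their values with 4-OI lay between those of the hemin pair. Tnfaip3 (0.06 ± 0.17), Socs3 (−0.18 ± 0.20) and Tnf (0.20 ± 0.22) also did not pass.

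The direction for several members turned on which hemin library was used. Without Hemin replicate 1 the values were 0.71 for Ccl2, 0.52 for Cxcl1, 0.09 for Cxcl10, 0.08 for Nfkbia and 0.06 for Socs3, and no member passed. Without Hemin replicate 2 Ccl2 (−0.76, limma adjusted p = 0.00524), Cxcl10 (−0.95, 0.0046) and Nfkbia (−0.92, 0.0015) passed as lower and Il6 (0.83, 0.0142) as higher, and 4471 genes passed. Il6 was above 0 in both, at 0.69 without Hemin replicate 1 (limma adjusted p = 0.195). The microglia, astrocyte and fibroblast sums were higher in Hemin replicate 1 than in replicate 2, as were the chemokines, while the neuron sum (690.6 against 926.6 FPKM) and the endothelial sum (4.72 against 7.56) were lower. Their part in this was not tested.

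**Figure D4:**
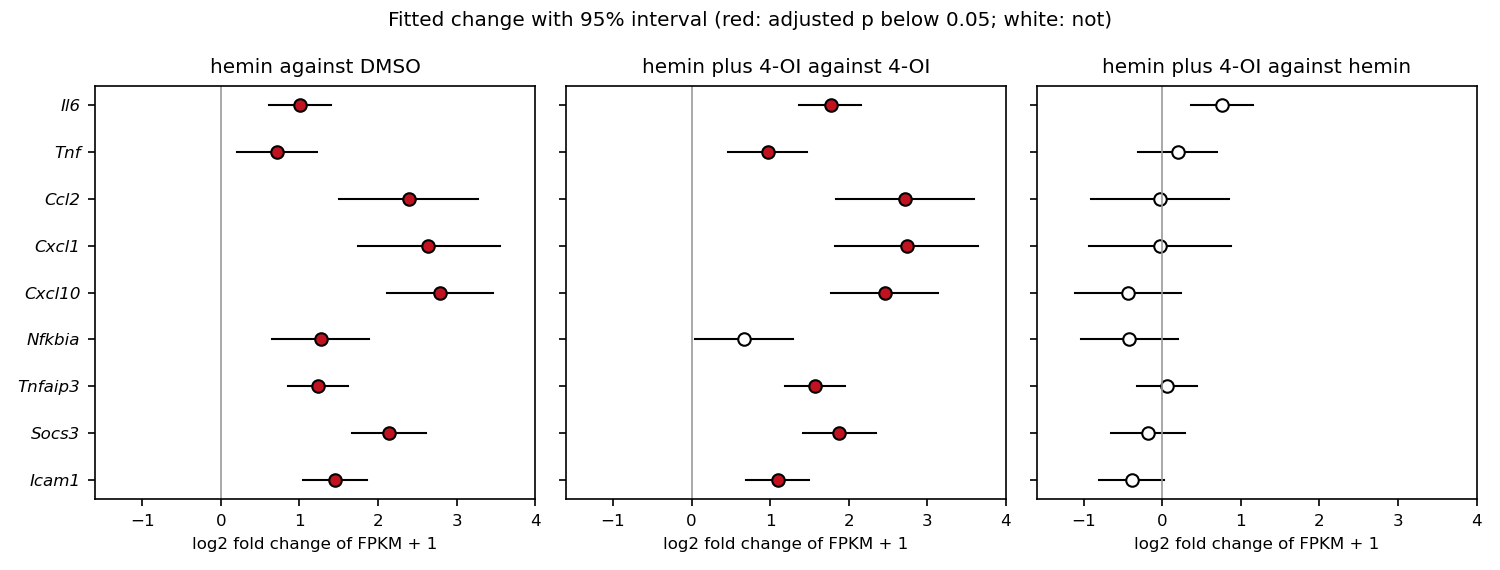
Log2 fold change of FPKM + 1 (x axes) with its 95% interval from limma for the 9 tested genes in 3 comparisons, red where the adjusted p is below 0.05. With hemin, changes run from 0.72 to 2.79 without 4-OI and from 0.67 to 2.74 with it, and in the right panel the interval of Il6 alone (0.36 to 1.16) does not include 0, although its adjusted p is 0.556.

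The interaction of hemin and 4-OI, the change with 4-OI under hemin minus that without hemin, was not called for any member or any gene (0%, with 5.01% at an unadjusted p below 0.05). Il6 had the lowest p of the members (0.76 ± 0.25, limma adjusted p = 0.854), followed by Nfkbia (−0.60 ± 0.38, 0.854). Without Hemin replicate 2 the interaction passed for Nfkbia (−1.10, limma adjusted p = 0.0043) and Cxcl10 (−0.85, 0.0279), and without Hemin replicate 1 it passed for no member.

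The genes with the most similar profiles were found by the root mean square difference of log2(FPKM + 1), centred on each gene's mean, over the 8 libraries. The nearest gene to Cxcl10 was Ier3, an early stress response gene, at 0.093, with 5.24 and 4.14 FPKM in DMSO and 54.88 and 24.32 with hemin. Ier3, the biliverdin reductase Blvrb and the iron exporter Slc40a1 were the 3 nearest to both Cxcl10 and Ccl2, and Ier3, Blvrb and Junb the nearest to Cxcl1. Nearest to Nfkbia were the protease inhibitor Cst3 (0.055), the lysosomal peptidase Tpp1 (0.059) and Sod3 (0.063), all highest in Hemin replicate 1. Tnfaip3 had another set, Phlda1 (0.062), Gfpt2 (0.088) and Utp11 (0.090), and in each of these Hemin replicate 1 was below Hemin replicate 2.

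For Il6 the nearest profile was that of Hspa5, the endoplasmic reticulum chaperone BiP, at 0.130, followed by Nars (0.168) and Taf7 (0.173). Hspa5 was at 142.2 to 152.2 FPKM without hemin, 310.5 and 376.4 under hemin, and 492.7 and 483.5 under the combination. The nearest to Socs3 were Wee1, Ezr and Btg2 (0.110 to 0.134), to Icam1 Mid1ip1, Col5a3 and Mxra7 (0.095 to 0.107), and to Tnf Rps20, Rpl13a and Ddrgk1 (0.075 to 0.093). These likenesses describe 8 libraries that share a large hemin response. The pseudocount shrinks the changes of low genes, so the neighbours listed for such members rest on its size. This applies most to Il6 and Tnf, and also to others, among them Cxcl1, Tnfaip3 and Socs3. With hemin the ratio of mean FPKM to DMSO was 14.6 for Cxcl1, 3.64 for Tnfaip3 and 6.36 for Socs3. Their folds on FPKM + 1 were 6.23, 2.36 and 4.4. For hemin against DMSO the log2 fold change of Il6 was 1.01 in the main fit and 3.47 with a pseudocount of 0.1. That of Tnf was 0.72 and 1.78. The likeness to Hspa5 or Rps20 therefore holds for the shrunken changes and not for the ratios of FPKM.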

How the data were processed

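RNA from the 8 libraries was deposited by the authors as 1 table of FPKM values with 2 decimals; the submitters' processing notes list Bowtie2, RSEM and the mm8 build, without versions or annotation. Promoters come from RefSeq on GRCm38.p6, another build, and were matched by symbol. FPKM hold no counts, so no count model was used. Depth was estimated from steps between low values of genes with 1 transcript, where 76.4% to 83.8% of values were whole numbers of fragments to a tolerance of 0.15, and entered no test.

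Values were fitted as log2(FPKM + 1) with limma 3.58.1 in R 4.3.3, with 1 mean per group and an intensity trend. Residual degrees of freedom were 4, with a prior of 4.28. Tests are two-sided, with Benjamini-Hochberg adjustment over all genes tested and a threshold of 0.05. Values after ± are standard errors unless marked SD. Tables were made with Python 3.11.15, and the fit was tested on simulated data.

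The members and lists were chosen with earlier results of these data known. Named genes are all members, the up to 4 tested genes per list with the lowest p for hemin against DMSO, the 3 nearest profiles per tested member (unnamed gene models passed over), and the most abundant marker per cell type in DMSO; of these last, Apoe, Thy1, Kdr and Tubb3 are named, and the one for microglia and macrophages is not reported here. Fits were repeated with 0.1 as pseudocount, without the filter or with one at 5 FPKM, and after TPM, median-of-ratios or quantile scaling. They were also repeated with a block for the replicate number, on the compared groups alone, without the trend, and without each library in turn. List counts without Hemin replicate 1, and the count of separated genes among those passing the filter without hemin, were added after seeing the data.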

Additional observations from a re-analysis of the deposited data

How the results depend on the processing

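For hemin against DMSO 145 of 150 alternative values of the tested members kept their direction and call, and the 5 that did not were those of Tnf given above. The calls of hemin plus 4-OI against DMSO were lost for Tnf under quantile normalization and for Nfkbia with no filter, and for one or the other on leaving out single libraries, 8 values in all. Scaling moved the median of all genes for hemin against DMSO from 0.19 to 0.02 (median of ratios) and −0.01 (quantile), and the share of calls that were higher from 63.1% to 51.3% and 47.4%. It changed no direction of a member there. Quantile normalization also ended the calls of Tnf in hemin plus 4-OI against 4-OI (0.46) and of Cx3cr1 (0.45) and Cxcl2 (0.40) under hemin, as did leaving out DMSO replicate 1 for Cx3cr1 (0.74) and DMSO replicate 2 for Ccl25 (0.88). With a filter at an FPKM of 5, 6 members remained testable, and 5 rose in hemin plus 4-OI against 4-OI. Without Hemin replicate 1 or 2 the fit assumes that the lone hemin library varies like the other groups.

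On leaving out 1 library the members higher with hemin plus 4-OI against hemin numbered 0 to 1, those lower 0 to 3 and genes called 0 to 4471. For the interaction, members lower numbered 0 to 2 and genes called 0 to 2568, and for 4-OI against DMSO 0 to 2 genes were called. With no filter 2 genes were called in hemin plus 4-OI against hemin and 2 in the interaction, and with no intensity trend 2 in the former. Members reversed only where their value was not called. Against hemin, Ccl2 was at 0.01 with TPM rescaling and 0.01 with median-of-ratios scaling, and Cxcl1 at 0.01, 0.01 and, with quantile normalization, 0.04. Leave-one-out ranges there were −0.76 to 0.71 for Ccl2, −0.57 to 0.52 for Cxcl1, −0.95 to 0.09 for Cxcl10, −0.92 to 0.08 for Nfkbia, −0.42 to 0.06 for Socs3 and −0.09 to 0.48 for Tnf. In 4-OI against DMSO they were −0.15 to 0.05 for Tnf, −0.56 to 0.31 for Cxcl1, −0.14 to 0.29 for Socs3 and −0.26 to 0.18 for Icam1. In the interaction they were −0.04 to 0.53 for Tnf, −0.41 to 1.07 for Ccl2, −0.45 to 0.64 for Cxcl1 and −0.85 to 0.19 for Cxcl10. Ackr3 under hemin was at −0.05 with quantile normalization.

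Same-numbered libraries had correlations of deviations between −0.09 and 0.052, so no large effect shared by replicate number was seen. The labels state no pairing, and these values cannot settle whether same-numbered samples were paired. With the number as a block 9 members rose with hemin, 8 with hemin plus 4-OI against 4-OI and 9 against DMSO, and 8261, 7699 and 7823 genes were called in these comparisons, against 8431, 7907 and 8047 without it. Depth limits Il1b, Il6 and Tnf, which rest on few fragments, and Cxcl1 in the libraries without hemin, at about 1.0 to 8.9 fragments. The spread pooled over groups includes that of the 2 hemin libraries in every comparison. The cause of the changes above was not tested.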
